A study of Mus musculus with 9 samples.

Results

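Potassium, sodium, calcium, TRP and Piezo channel genes were taken as every row of the gene table whose symbol began with Kcn, Scn or Cacn, was Trpc, Trpm or Trpv followed by a digit, or was Piezo1 or Piezo2, with 2 inward rectifier genes left out. This rule on symbols gave 159 of 22013 genes, made up of 92 potassium, 26 calcium, 21 TRP, 18 sodium and 2 Piezo channel genes. They include auxiliary subunits, and 1 row, Scnm1, that is named after a sodium channel it affects but encodes a splicing factor. TPM is a transcript level corrected for gene length and scaled to a fixed total. A TPM of 1 or more in 3 or more libraries was reached by 55 of these genes, and they were tested. The other 104 were not tested, and 20 of those stood at 0 in every library.

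Ion channels are membrane proteins that open a path for ions when the membrane voltage, a ligand, temperature or mechanical force changes. Potassium channels hold the resting voltage of a cell negative, voltage-gated sodium and calcium channels open when it becomes less negative, and TRP and Piezo channels let calcium and other cations in on chemical or mechanical stimuli. Fibroblasts do not fire action potentials, but calcium entry and stretch sensing are known to take part in their contraction, matrix production and change into myofibroblasts.

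The libraries were made from total RNA of mouse primary cells labelled as fibroblasts and taken from the meninges, the membranes around the spinal cord. Per the labels they were freshly collected and untreated, and the groups differ in a segment called C, T or L, letters that the labels do not spell out, with 3 libraries from each. For strain, age and sex, the sources used here give nothing. The labels name no separate animals or cultures behind the replicates, so each p-value stands only for the spread among these 9 libraries, which may be technical.

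Library totals ran from 15652558 to 25204310 estimated counts, of which the channel genes held 28092 to 43340 per library, or 0.1415% to 0.2137%. Fibroblast markers ranged widely in level. The 2 most abundant were Fn1, at a mean of 4364, 5659 and 6907 TPM in C, T and L, and Vim, at 5154, 3455 and 4061 TPM. Others, named here after their values were seen, were low. Pdgfra stood at 3.54, 23.3 and 7.09 TPM, Lum at 2.98, 5.22 and 4.35, Dpt at 4.09, 6.44 and 6.41 and Pi16 at 0.111, 1.25 and 2.15. Of the 13 fibroblast markers tested, 7 rose and 5 fell in T against C, and the summed TPM of the list was 14058 to 14459 in C, 13930 to 14704 in T and 16487 to 16916 in L. Markers of other cell types were compared in the same way, beside 25.8% higher and 25.2% lower among all tested genes in T against C. Against C, the tested mural and smooth muscle markers had 0 higher and 8 lower of 9 in T, the endothelial 1 and 4 of 5, the neuronal 1 and 3 of 5, the Schwann cell 4 and 7 of 11, the oligodendrocyte 0 and 2 of 4, the pial 1 and 7 of 8, the dural 7 and 1 of 8 and the arachnoid 5 and 1 of 7. The same comparison gave 6 higher and 3 lower of 9 for astrocyte and ependymal markers, 2 and 0 of 7 for macrophage, 2 and 0 of 2 for epithelial and 0 and 1 of 1 for skeletal muscle markers. Cldn5 (endothelium), Higd1b (pericytes) and Myog (muscle) were at 0 in every library, and Snap25 and Rbfox3 (neurons) had mean TPM values below 0.5 in each segment. Other markers of these types were present, among them Cdh5 and Flt1 (endothelium), with means of 83.6, 43.1 and 54.1 TPM and of 16.1, 1.13 and 1.18 TPM in C, T and L, and the summed TPM of the skeletal muscle list was 5.46 to 7.17, 1.67 to 3.1 and 4.05 to 6.08. In bulk RNA, fewer cells of a type and less RNA per cell cannot be told apart.

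Channel transcripts made up more of the RNA in T and L than in C, and most of that difference lay in Piezo2. The summed TPM of all 159 genes was 689, 719 and 701 in the C libraries, 987, 1036 and 1028 in those of T and 891, 938 and 896 in those of L, so that the 3 segments did not overlap. Without the 2 Piezo genes the sums were 461 to 480 in C, 475 to 498 in T and 480 to 504 in L. Summed by ion, potassium channel genes stood at 126 ± 5.91, 143 ± 5.04 and 145 ± 3.76 TPM in C, T and L (SD, n = 3), and calcium channel genes at 166 ± 3.59, 163 ± 5.01 and 156 ± 5.5 TPM. Sodium channel genes summed to 103 ± 3.54, 100.2 ± 8.4 and 102 ± 3.66 TPM and TRP channel genes to 76.6 ± 6.35, 80.8 ± 7.61 and 88.5 ± 2.64 TPM. Beneath these close sums, single genes moved in opposite directions.

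**Figure D1:**
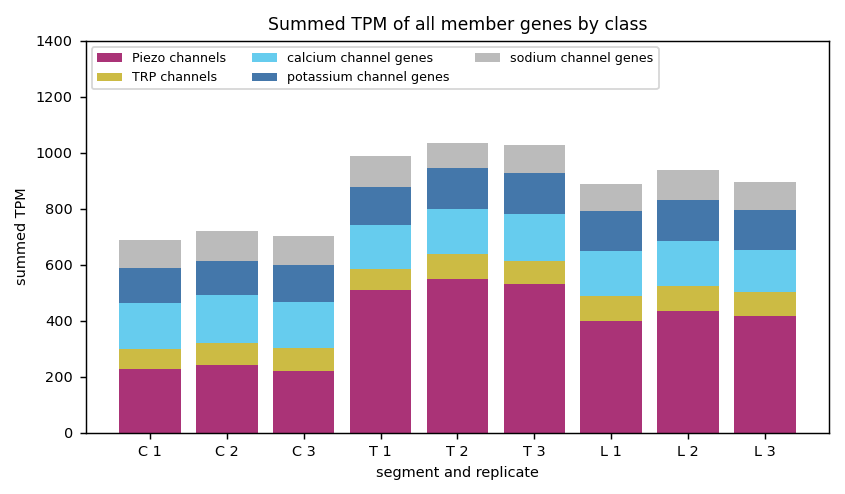
Stacked bars give the summed TPM of all 159 channel genes in each of the 9 libraries, split into Piezo, TRP, calcium, potassium and sodium channel genes. The Piezo share, 31.5% to 33.7% of the sum in C, 51.6% to 53.0% in T and 44.7% to 46.4% in L, carries the difference in height.

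Differences between segments were tested by edgeR's quasi-likelihood test on counts, with p-values adjusted by the Benjamini-Hochberg method over all 12553 genes tested and a threshold of 0.05. In T against C, 20 of the 55 tested channel genes (36.4%) were higher in T, beside 25.8% of all tested genes. The number lower in T was 22 (40%), beside 25.2% of all genes. Against C, 17 (30.9%) were higher in L, beside 24.4% of all genes, and 20 (36.4%) lower, beside 25.2%. L differed less from T, with 13 channel genes (23.6%) higher in L, beside 7.88% of all genes, and 10 (18.2%) lower, beside 8.21%. Across the 3 segments, the F test called 45 of the 55 (81.8%), beside 55.9% of all genes. The comparisons share libraries, and their counts are not independent of each other. The members that passed the level filter are not all members, since a gene could pass through 1 segment alone. Kcnn2 and Kcnk12 did so through C, where they were high, and both count among the genes lower in T and in L. Each call was repeated under 20 alternatives (other scalings, filters and tests, and each library left out in turn), and a call that was lost in any of them is named as such beside it.

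The median absolute log2 fold change of the channel genes was 0.82 for T against C, 0.73 for L against C and 0.38 for L against T, beside 0.29, 0.27 and 0.13 for all tested genes. Signed medians lay near 0 for both, at 0.08, -0.03 and 0.09 for the channel genes and 0.02, 0.01 and -0.00 for all genes. A change of at least 2-fold past the threshold was found for 10 genes higher and 14 lower in T against C, for 6 and 13 in L against C, and for 5 and 7 in L against T. Among all tested genes, 13.1%, 12.5% and 4.31% passed that mark in either direction.

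**Figure D2:**
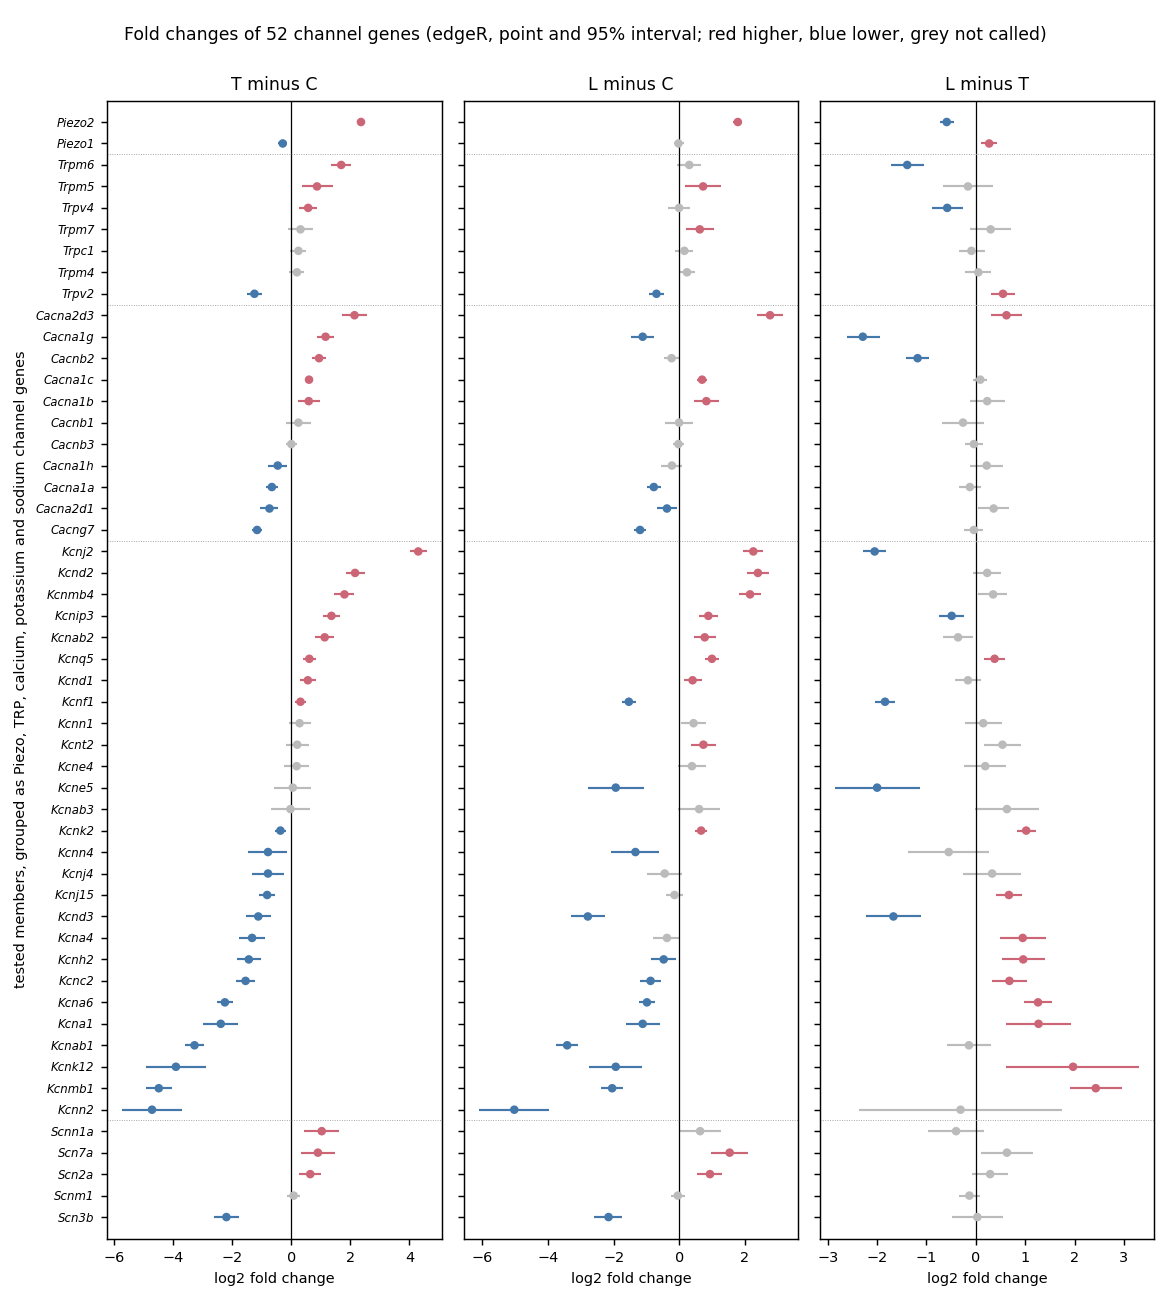
Points give the log2 fold change of 52 of the 55 tested channel genes with its 95% interval for the 3 comparisons, grouped as Piezo, TRP, calcium, potassium and sodium channel genes, with red for higher, blue for lower and grey for not called. Kcnj2 at 4.30 and Kcnn2 at -4.72 mark the ends of the T minus C panel.

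The 2 Piezo genes encode large cation channels opened directly by force on the membrane. Piezo2 is best known from touch and proprioceptive neurons, and Piezo1 from vessels, blood cells and many connective tissue cells. Both were among the most abundant channel genes here. Piezo2 measured 61.1, 72 and 61.9 TPM in the C libraries, 354, 409.7 and 387 in those of T and 228, 266 and 231 in those of L. Every T library lay above every L library, and every L library above every C library. Piezo2 was 5.14-fold higher in T than in C (log2 fold change 2.36, SE 0.07, adjusted p = 6.81e-12), 3.42-fold higher in L than in C (log2 fold change 1.78, SE 0.07, adjusted p = 1.46e-10) and 1.5-fold lower in L than in T (log2 fold change -0.59, SE 0.06, adjusted p = 1.89e-05).

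Piezo1 moved little by comparison. Its levels were 166, 170.3 and 159 TPM in the C libraries, 157, 139 and 144 in those of T and 171, 168 and 185 in those of L. The T libraries were the lowest, without overlap, and C and L overlapped. Piezo1 was 1.23-fold lower in T than in C (log2 fold change -0.29, SE 0.07, adjusted p = 0.00417) and 1.2-fold higher in L than in T (log2 fold change 0.27, SE 0.07, adjusted p = 0.0226), with a difference of L against C of -0.03 (95% interval -0.18 to 0.13). Piezo1 lost its L against T call without T replicate 2 or 3, or L replicate 3 (log2 fold change 0.20 to 0.25, adjusted p 0.0789 to 0.0958), and over the 20 alternatives its adjusted p ran from 0.00233 to 0.0958. In the annotation of an earlier mouse build (GENCODE M21), 24.6% of its exon bases are shared with Ctu2 on the opposite strand, and the strand setting of the counting is not given. The ratio of Piezo2 to Piezo1 TPM was 0.367 to 0.423 in C, 2.26 to 2.94 in T and 1.24 to 1.58 in L. Piezo1 was thus the more abundant of the pair in all C libraries and Piezo2 in all T and L libraries.

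**Figure D3:**
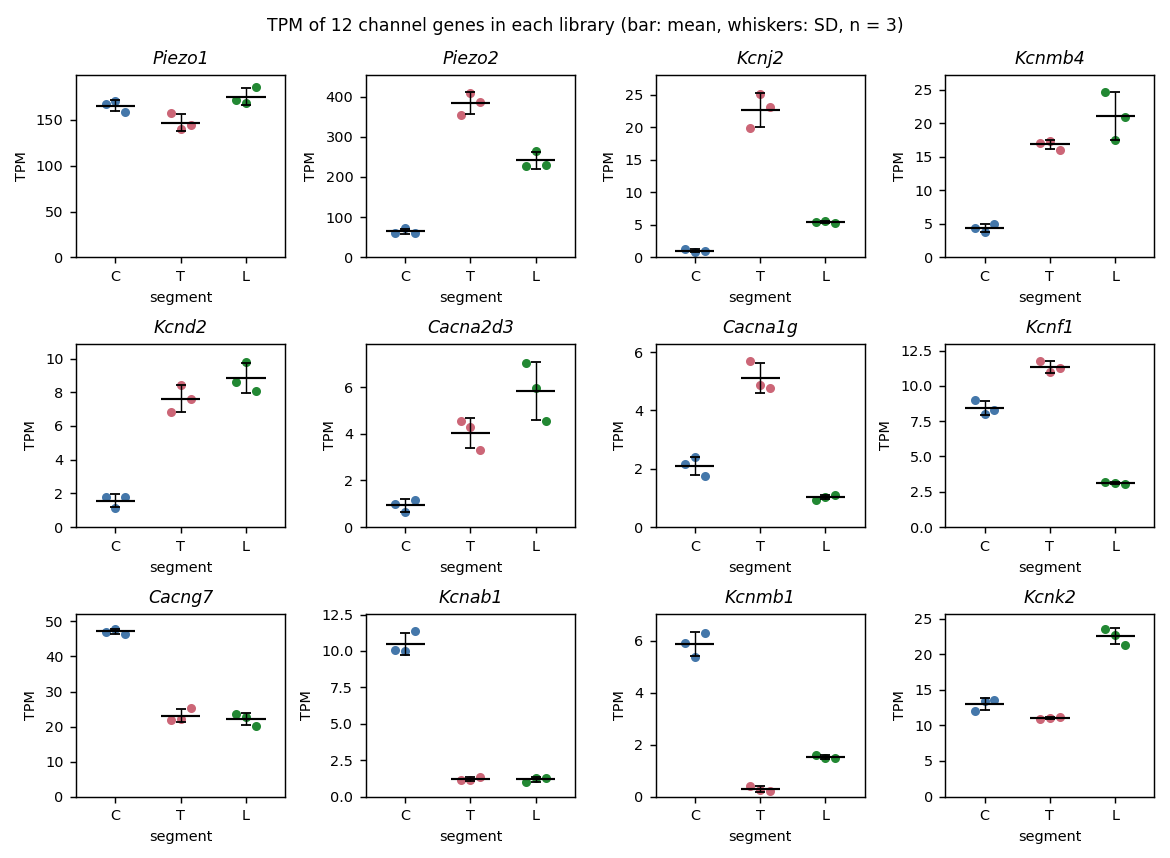
Each point is the TPM of 1 library for 12 channel genes, by segment, with the mean as a bar and the SD as whiskers (n = 3). Piezo2 and Kcnj2 are highest in T and lowest in C, Cacna1g and Kcnf1 are highest in T and lowest in L, and Kcnmb1, Kcnab1 and Cacng7 are highest in C.

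Of the 21 TRP channel genes, 7 were tested. In T against C, 3 of them rose and 1 fell, beside 25.8% higher and 25.2% lower among all tested genes. Trpm7, a channel joined to a kinase that carries magnesium and calcium into most cells, had the highest mean over all 9 libraries, although that of Trpv2 was higher in C, and measured 17.2, 22.2 and 27.1 TPM in the C libraries, 20.1, 36.3 and 34.3 in those of T and 38.2, 43 and 30.03 in those of L. Its C and L libraries did not overlap, and Trpm7 was 1.54-fold higher in L than in C (log2 fold change 0.62, SE 0.19, adjusted p = 0.0173). Trpm7 lost its L against C call without C replicate 1, or L replicate 2 (log2 fold change 0.48 to 0.51, adjusted p 0.068 to 0.0861), and over the 20 alternatives its adjusted p ran from 0.000777 to 0.0861. Trpm6, its relative known from magnesium uptake in kidney and gut, measured 0.924, 0.781 and 1.01 TPM in the C libraries, 3.55, 3.15 and 3.27 in those of T and 1.33, 2.01 and 1.16 in those of L. All T libraries were above all others. Trpm6 was 3.22-fold higher in T than in C (log2 fold change 1.69, SE 0.15, adjusted p = 6.2e-07) and 2.62-fold lower in L than in T (log2 fold change -1.39, SE 0.15, adjusted p = 1.79e-05), and L minus C was 0.30 (95% interval -0.07 to 0.66).

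The calcium-activated, sodium-conducting channels Trpm4 and Trpm5 are the other tested members of that branch. Trpm5, known from taste cells, measured 3.76, 3.67 and 3.83 TPM in the C libraries, 8.69, 5.73 and 8.52 in those of T and 7.35, 5.31 and 7.2 in those of L. C libraries were close together and below all others. It was 1.83-fold higher in T than in C (log2 fold change 0.87, SE 0.24, adjusted p = 0.00902) and 1.64-fold higher in L than in C (log2 fold change 0.72, SE 0.25, adjusted p = 0.0307). Trpm5 lost its L against C call without C replicate 1, 2 or 3, or L replicate 1 or 3 (log2 fold change 0.64 to 0.74, adjusted p 0.0629 to 0.095), and in 6 of the 20 alternatives in all, over which its adjusted p ran from 0.005 to 0.095. These are low counts, 77 in C, 130 in T and 105 in L summed over 3 libraries. An opposite-strand gene, Tssc4, shares 3.44% of the exon bases of Trpm5. Trpm4 averaged 11.9 ± 0.406, 15.0 ± 1.52 and 15.3 ± 1.19 TPM in C, T and L and was not called in any comparison.

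Among the vanilloid-type channels, Trpv2, found in sensory neurons, muscle and immune cells, measured 25.6, 31 and 26.1 TPM in the C libraries, 13.7, 11.9 and 12.2 in those of T and 17.4, 17.2 and 19.9 in those of L. C was highest and T lowest, with no overlap between any pair of segments. Trpv2 was 2.38-fold lower in T than in C (log2 fold change -1.25, SE 0.11, adjusted p = 7.2e-07), 1.63-fold lower in L than in C (log2 fold change -0.70, SE 0.11, adjusted p = 0.000144) and 1.46-fold higher in L than in T (log2 fold change 0.55, SE 0.12, adjusted p = 0.00501). Trpv4, a channel opened by osmotic swelling and warmth, measured 2.66, 2.2 and 2.43 TPM in the C libraries, 3.94, 3.77 and 4.08 in those of T and 2.8, 2.58 and 2.47 in those of L. The T libraries stood above both others, while C and L overlapped. It was 1.48-fold higher in T than in C (log2 fold change 0.57, SE 0.14, adjusted p = 0.00415) and 1.5-fold lower in L than in T (log2 fold change -0.58, SE 0.14, adjusted p = 0.0134). Trpv4 lost its L against T call without T replicate 3, or L replicate 3 (log2 fold change -0.56 to -0.55, adjusted p 0.0502 to 0.0545), and over the 20 alternatives its adjusted p ran from 0.0113 to 0.0545. Trpc1, the one tested canonical TRP channel, measured 4.93, 5.62 and 6.39 TPM in the C libraries, 6.06, 9.44 and 6.13 in those of T and 5.49, 6.16 and 8.32 in those of L, with overlap in every comparison and a T minus C difference of 0.24 (95% interval -0.03 to 0.50).

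Of the 26 calcium channel genes, 11 were tested. In T against C 5 rose and 4 fell, beside 25.8% higher and 25.2% lower among all tested genes. Voltage-gated calcium channels have a pore-forming alpha1 subunit and auxiliary beta and alpha2delta subunits that bring it to the membrane. The L-type alpha1 subunit Cacna1c, which drives contraction in heart and smooth muscle, was the most abundant of 5 tested pore genes. Its levels were 22, 19.7 and 19.8 TPM in the C libraries, 31.6, 35.4 and 32.7 in those of T and 36.3, 37.4 and 32.8 in those of L. All T and L libraries were above all C libraries, and T and L overlapped. Cacna1c was 1.52-fold higher in T than in C (log2 fold change 0.60, SE 0.06, adjusted p = 4.16e-06) and 1.62-fold higher in L than in C (log2 fold change 0.69, SE 0.07, adjusted p = 1.21e-06).

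Cacna1g, a T-type alpha1 subunit that opens at more negative voltages, separated all 3 segments. It measured 2.15, 2.39 and 1.76 TPM in the C libraries, 5.68, 4.87 and 4.76 in those of T and 0.941, 1.04 and 1.1 in those of L. T was highest and L lowest. Cacna1g was 2.24-fold higher in T than in C (log2 fold change 1.16, SE 0.14, adjusted p = 8.85e-06), 2.18-fold lower in L than in C (log2 fold change -1.12, SE 0.16, adjusted p = 6.81e-05) and 4.88-fold lower in L than in T (log2 fold change -2.29, SE 0.15, adjusted p = 2.13e-07). Its T-type relative Cacna1h averaged 1.96 ± 0.164, 1.56 ± 0.246 and 1.79 ± 0.181 TPM in C, T and L, and was 1.37-fold lower in T than in C (log2 fold change -0.46, SE 0.15, adjusted p = 0.0193) although the libraries overlapped. Cacna1h lost its T against C call without C replicate 2 or 3, or T replicate 2 or 3 (log2 fold change -0.43 to -0.37, adjusted p 0.0551 to 0.0884), and in 6 of the 20 alternatives in all, over which its adjusted p ran from 0.00357 to 0.204.

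The alpha1 subunits of the P/Q-type and N-type channels, both best known from nerve terminals, moved in opposite directions. Cacna1a (P/Q-type) measured 10.9, 8.83 and 7.76 TPM in the C libraries, 4.8, 4.46 and 6.01 in those of T and 7.62, 5.86 and 4.33 in those of L. The C libraries were above all others. It was 1.58-fold lower in T than in C (log2 fold change -0.66, SE 0.10, adjusted p = 8.06e-05) and 1.71-fold lower in L than in C (log2 fold change -0.78, SE 0.10, adjusted p = 2.34e-05). Cacna1b (N-type) measured 0.972, 1.27 and 0.801 TPM in the C libraries, 2.19, 1.75 and 1.33 in those of T and 2.78, 1.65 and 4.22 in those of L. C was below both others, and the L libraries were spread widely. It was 1.5-fold higher in T than in C (log2 fold change 0.59, SE 0.17, adjusted p = 0.0116) and 1.76-fold higher in L than in C (log2 fold change 0.82, SE 0.17, adjusted p = 0.0014) on counts. Cacna1b lost its T against C call in 3 alternatives that use limma on TPM, and its adjusted p ran from 0.00599 to 0.347 over the 20 alternatives. For this gene the log2 ratio of mean TPM for L against C, 1.51, was larger than the count-based log2 fold change of 0.82, and its size thus depends on the measure.

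Of the auxiliary calcium channel subunits, Cacnb3 was the most abundant. Its levels were 52.2, 57.4 and 50.5 TPM in the C libraries, 60.9, 55.2 and 59 in those of T and 55.9, 53.5 and 59 in those of L, with overlap throughout and a T minus C difference of 0.00 (95% interval -0.18 to 0.18). Cacnb2, the beta subunit typical of heart, measured 6.39, 6.64 and 6.16 TPM in the C libraries, 10.7, 14.4 and 14.2 in those of T and 5.48, 6.46 and 5.82 in those of L. The T libraries stood above all others. Cacnb2 was 1.92-fold higher in T than in C (log2 fold change 0.94, SE 0.11, adjusted p = 5.83e-06) and 2.26-fold lower in L than in T (log2 fold change -1.18, SE 0.11, adjusted p = 4.22e-06). Cacnb1 averaged 3.54 ± 0.394, 4.26 ± 0.884 and 3.96 ± 0.428 TPM in C, T and L and was not called.

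The 2 tested alpha2delta genes went opposite ways. Cacna2d3 measured 0.977, 0.64 and 1.17 TPM in the C libraries, 4.54, 4.3 and 3.29 in those of T and 7.04, 5.95 and 4.55 in those of L. C was lowest, and T lay between C and L with values that did not overlap by a narrow margin. Cacna2d3 was 4.41-fold higher in T than in C (log2 fold change 2.14, SE 0.19, adjusted p = 5.65e-07), 6.77-fold higher in L than in C (log2 fold change 2.76, SE 0.18, adjusted p = 3.8e-08) and 1.54-fold higher in L than in T (log2 fold change 0.62, SE 0.15, adjusted p = 0.0112). Cacna2d3 lost its L against T call without T replicate 3 (log2 fold change 0.52, adjusted p = 0.0653), and in 4 of the 20 alternatives in all, over which its adjusted p ran from 0.0107 to 0.221. Cacna2d1, the subunit bound by gabapentin, measured 16.1, 15.7 and 18.8 TPM in the C libraries, 9.5, 12.8 and 14 in those of T and 15.4, 16.7 and 11.2 in those of L. T lay below C without overlap. It was 1.67-fold lower in T than in C (log2 fold change -0.74, SE 0.14, adjusted p = 0.00066) and 1.3-fold lower in L than in C (log2 fold change -0.38, SE 0.14, adjusted p = 0.0381). Cacna2d1 lost its L against C call without C replicate 1, 2 or 3, or L replicate 1 or 3 (log2 fold change -0.42 to -0.24, adjusted p 0.0593 to 0.189), and in 10 of the 20 alternatives in all, over which its adjusted p ran from 0.00613 to 0.282.

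Cacng7 belongs to the gamma subunits, several of which regulate AMPA-type glutamate receptors and not calcium channels. It measured 47.1, 47.9 and 46.5 TPM in the C libraries, 21.9, 22.1 and 25.2 in those of T and 23.6, 22.6 and 20.1 in those of L. Every C library was above every T and L library. Cacng7 was 2.23-fold lower in T than in C (log2 fold change -1.16, SE 0.08, adjusted p = 5.59e-08) and 2.3-fold lower in L than in C (log2 fold change -1.20, SE 0.08, adjusted p = 5.62e-08), with an L minus T difference of -0.04 (95% interval -0.23 to 0.14). Its neighbour in the annotation, Cacng8, failed the level filter, with 0.877, 2.18 and 2.32 TPM in the C libraries, 0.261, 0.346 and 0.446 in those of T and 0.211, 0.112 and 0.444 in those of L.

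Of the 92 potassium channel genes, 29 were tested. In T against C 8 of them rose and 15 fell, beside 25.8% higher and 25.2% lower among all tested genes. In L against C 9 rose and 14 fell, beside 24.4% and 25.2% among all tested genes. The largest rise of any channel gene in T was that of Kcnj2, an inward rectifier that clamps the resting voltage in muscle and other cells. It measured 1.319, 0.891 and 0.961 TPM in the C libraries, 19.9, 25.1 and 23.1 in those of T and 5.38, 5.56 and 5.27 in those of L. The segments were far apart, with T highest and C lowest. Kcnj2 was 19.7-fold higher in T than in C (log2 fold change 4.30, SE 0.13, adjusted p = 1.03e-11), 4.76-fold higher in L than in C (log2 fold change 2.25, SE 0.14, adjusted p = 1.93e-08) and 4.14-fold lower in L than in T (log2 fold change -2.05, SE 0.11, adjusted p = 2.29e-08).

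Markers of meningeal layers differed between the segments too. The dural list summed to 2327 to 2494 TPM in C, 3077 to 3163 in T and 2803 to 2892 in L, the order of Piezo2 and Kcnj2, although its most abundant gene, Mgp, ran the other way with means of 1728, 392 and 657 TPM beside Smoc2 with 161, 606 and 724. The arachnoid list summed to 259 to 277 TPM in C, 282 to 297 in T and 212 to 225 in L, led by Aldh1a2 with means of 217, 27.0 and 32.2 TPM and Crabp2 with 47.4, 80.8 and 105, and the pial list to 8244 to 8608, 7282 to 8583 and 7353 to 8386 TPM. Within these lists, the arachnoid markers Cldn11, at means of 1.1, 111 and 37.8 TPM, and Wnt6, at 2.46, 60.1 and 37.9, and the dural marker Ccn3, at 35.4, 814 and 316, all named after their values were seen, had the order of Piezo2 and Kcnj2. Others, named likewise, had their highest mean in L, as Crabp2 and Smoc2 did. They were Dpp4, at 0.244, 1.17 and 2.32 TPM, Ptgds, at 0.87, 2.18 and 2.8, and Gja1, at 110, 507 and 592. The part of these markers in the Piezo2 and Kcnj2 results was not tested.

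The 2 other tested inward rectifiers were lower in T. Kcnj15 measured 5.72, 7.33 and 9.14 TPM in the C libraries, 5.17, 4.16 and 5.6 in those of T and 7.47, 14.9 and 9.77 in those of L. It was 1.77-fold lower in T than in C (log2 fold change -0.82, SE 0.12, adjusted p = 7.01e-05) and 1.59-fold higher in L than in T (log2 fold change 0.67, SE 0.12, adjusted p = 0.0017). On TPM, the T minus C call for Kcnj15 did not pass in limma on log2(TPM + 1) or log2(TPM + 0.1), and for L against C the log2 ratio of mean TPM was 0.53 where the count-based change was -0.15. Kcnj4 measured 3.71, 4.84 and 3.4 TPM in the C libraries, 2.86, 2.16 and 2.51 in those of T and 2.1, 4.45 and 2.85 in those of L. T lay below C without overlap, and L spanned both. Kcnj4 was 1.72-fold lower in T than in C (log2 fold change -0.79, SE 0.25, adjusted p = 0.0192). Kcnj4 lost its T against C call without C replicate 2, or T replicate 2 or 3 (log2 fold change -0.78 to -0.61, adjusted p 0.0529 to 0.0941), and in 5 of the 20 alternatives in all, over which its adjusted p ran from 0.00861 to 0.0941.

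Leak channels of the 2-pore-domain type set background potassium permeability. Kcnk2, a leak channel that responds to stretch, heat and lipids, measured 12.1, 13.4 and 13.5 TPM in the C libraries, 10.9, 11 and 11.2 in those of T and 23.5, 22.7 and 21.3 in those of L. L was highest and T lowest, with no overlap between segments. Kcnk2 was 1.57-fold higher in L than in C (log2 fold change 0.66, SE 0.09, adjusted p = 3.33e-05), 2.03-fold higher in L than in T (log2 fold change 1.02, SE 0.09, adjusted p = 2.55e-06) and 1.29-fold lower in T than in C (log2 fold change -0.37, SE 0.09, adjusted p = 0.00427). The last of these did not pass in limma on log2(TPM + 1), where its adjusted p was 0.0508 against 0.00266 to 0.0508 over all alternatives. An antisense transcript covers 12.2% of its exon bases. Kcnk12, a leak channel that gives little current on its own, measured 2.77, 2.1 and 2.47 TPM in the C libraries, 0, 0.182 and 0.312 in those of T and 0.666, 0.392 and 0.932 in those of L. C was above all others, and T rested on 8 counts over 3 libraries. The level filter was passed through C alone, the segment where Kcnk12 was high. Kcnk12 was 15-fold lower in T than in C (log2 fold change -3.91, SE 0.48, adjusted p = 1.32e-05), 3.83-fold lower in L than in C (log2 fold change -1.94, SE 0.37, adjusted p = 0.000746) and 3.91-fold higher in L than in T (log2 fold change 1.97, SE 0.62, adjusted p = 0.0473). Kcnk12 lost its L against T call without C replicate 1, 2 or 3, or T replicate 1 or 2, or L replicate 1 or 3 (log2 fold change 1.48 to 2.00, adjusted p 0.0656 to 0.195), and in 12 of the 20 alternatives in all, over which its adjusted p ran from 0.0208 to 0.195.

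Calcium-activated potassium channels open when calcium rises inside the cell. The beta subunits of the large-conductance channel moved in opposite directions. Kcnmb1, the beta subunit of smooth muscle, measured 5.93, 5.39 and 6.31 TPM in the C libraries, 0.40, 0.256 and 0.205 in those of T and 1.6, 1.48 and 1.49 in those of L. C was highest and T lowest, and no segments overlapped. Kcnmb1 was 22.4-fold lower in T than in C (log2 fold change -4.49, SE 0.20, adjusted p = 5.27e-10), 4.15-fold lower in L than in C (log2 fold change -2.05, SE 0.15, adjusted p = 1.24e-07) and 5.41-fold higher in L than in T (log2 fold change 2.43, SE 0.24, adjusted p = 8.5e-06). Kcnmb4, the beta subunit typical of neurons, measured 4.42, 3.81 and 4.95 TPM in the C libraries, 17.1, 17.4 and 16 in those of T and 24.6, 17.5 and 21 in those of L. C was lowest, and T lay just below L, a difference that was not called. Kcnmb4 was 3.48-fold higher in T than in C (log2 fold change 1.80, SE 0.16, adjusted p = 5.41e-07) and 4.43-fold higher in L than in C (log2 fold change 2.15, SE 0.16, adjusted p = 9.97e-08). Antisense transcripts cover 10.7% and 20.8% of its exon bases. The pore gene itself, Kcnma1, failed the level filter and averaged 0.554, 0.768 and 0.543 TPM in C, T and L.

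The summed TPM of mural and smooth muscle markers had the same order as Kcnmb1. It was 13542 to 14068 in C, 7610 to 8545 in T and 10336 to 11389 in L, led by Acta2 with means of 7784, 4743 and 6851 TPM and Tagln with 5134, 3114 and 3565 TPM. Higd1b was at 0 in every library, and Abcc9 averaged 0.064, 0.043 and 0.078 TPM in C, T and L. The part of these cells in the Kcnmb1 result was not tested.

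Of the small- and intermediate-conductance channels, 2 were highest in C. Kcnn2, the small-conductance channel of neurons and heart, measured 3.25, 3.19 and 3.13 TPM in the C libraries, 0.253, 0 and 0.214 in those of T and 0.169, 0 and 0.104 in those of L. The C libraries were close together, and 1 T and 1 L library were at 0. The level filter was passed through the C libraries alone, the segment where Kcnn2 was high. Kcnn2 was 26.4-fold lower in T than in C (log2 fold change -4.72, SE 0.46, adjusted p = 1.6e-06) and 32.8-fold lower in L than in C (log2 fold change -5.03, SE 0.50, adjusted p = 2e-06), resting on 215 counts in C, 7 in T and 5 in L. Kcnn4, the intermediate-conductance channel known from red cells, lymphocytes and dividing fibroblasts, measured 1.29, 1.88 and 1.29 TPM in the C libraries, 0.573, 1.15 and 1.01 in those of T and 1.33, 0.556 and 0.63 in those of L. It was 2.54-fold lower in L than in C (log2 fold change -1.34, SE 0.34, adjusted p = 0.00531) although 1 L library overlapped with C, and this call did not pass in limma on log2(TPM + 1) or log2(TPM + 0.1). Kcnn4 was also 1.73-fold lower in T than in C (log2 fold change -0.79, SE 0.31, adjusted p = 0.0461). Kcnn4 lost its T against C call without C replicate 1, 2 or 3, or T replicate 1 or 3, or L replicate 1, 2 or 3 (log2 fold change -0.88 to -0.58, adjusted p 0.0527 to 0.182), and in 16 of the 20 alternatives in all, over which its adjusted p ran from 0.0345 to 0.182. Kcnt2, a sodium-activated channel, averaged 1.93 ± 0.401, 2.43 ± 0.511 and 3.26 ± 0.209 TPM in C, T and L and was 1.66-fold higher in L than in C (log2 fold change 0.73, SE 0.18, adjusted p = 0.00367). Kcnn1 was not called, with means of 3.34 ± 0.890, 4.24 ± 1.69 and 5.17 ± 2.62 TPM in C, T and L.

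Of the 9 tested pore genes of the voltage-gated Kv1 to Kv4 families, 2 rose and 6 fell in T against C. Among all tested genes 25.8% rose and 25.2% fell. The A-type channels of the Kcnd family, which activate and inactivate quickly, were split. Kcnd2 measured 1.77, 1.1 and 1.77 TPM in the C libraries, 6.81, 8.45 and 7.59 in those of T and 8.61, 9.81 and 8.09 in those of L. T and L overlapped, and both lay above C. Kcnd2 was 4.47-fold higher in T than in C (log2 fold change 2.16, SE 0.15, adjusted p = 4.99e-08) and 5.25-fold higher in L than in C (log2 fold change 2.39, SE 0.15, adjusted p = 2.27e-08). Kcnd3 measured 3.42, 2.7 and 4.03 TPM in the C libraries, 1.21, 2.06 and 1.29 in those of T and 0.509, 0.453 and 0.308 in those of L. The order was C above T above L, with no overlap. Kcnd3 was 2.17-fold lower in T than in C (log2 fold change -1.12, SE 0.19, adjusted p = 0.000315), 6.91-fold lower in L than in C (log2 fold change -2.79, SE 0.24, adjusted p = 4.69e-07) and 3.19-fold lower in L than in T (log2 fold change -1.67, SE 0.26, adjusted p = 0.000441). Kcnd1 averaged 2.38 ± 0.165, 3.81 ± 0.273 and 3.37 ± 0.302 TPM in C, T and L and was 1.47-fold higher in T than in C (log2 fold change 0.56, SE 0.12, adjusted p = 0.00203) and 1.321-fold higher in L than in C (log2 fold change 0.40, SE 0.13, adjusted p = 0.0184). Kcnd1 lost its L against C call without C replicate 3, or L replicate 2 (log2 fold change 0.34 to 0.35, adjusted p 0.0659 to 0.0692), and in 3 of the 20 alternatives in all, over which its adjusted p ran from 0.00934 to 0.134.

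Partners of the Kcnd channels were measured too. Kcnip3, a calcium-binding subunit of these channels that also acts as a transcriptional repressor, measured 5.34, 5.02 and 5.07 TPM in the C libraries, 14.9, 12.4 and 14.8 in those of T and 10.4, 11.4 and 10.02 in those of L. T was above L and L above C in every library. Kcnip3 was 2.57-fold higher in T than in C (log2 fold change 1.36, SE 0.13, adjusted p = 9.95e-07), 1.83-fold higher in L than in C (log2 fold change 0.88, SE 0.13, adjusted p = 0.000101) and 1.4-fold lower in L than in T (log2 fold change -0.49, SE 0.12, adjusted p = 0.0136). Kcnip3 lost its L against T call without T replicate 3, or L replicate 3 (log2 fold change -0.45 to -0.43, adjusted p 0.0537 to 0.0709), and over the 20 alternatives its adjusted p ran from 0.00264 to 0.0709. Dpp6, a membrane subunit of the same complexes that the symbol rule does not cover, averaged 1.12, 9.46 and 2.13 TPM in C, T and L. It was 7.81-fold higher in T than in C (log2 fold change 2.97, adjusted p = 6.5e-10) and 1.79-fold higher in L than in C (log2 fold change 0.84, adjusted p = 0.000587).

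Shaker-type Kcna genes, which encode slowly or rapidly inactivating channels of axons and vessels, had their highest mean in C and their lowest in T. Kcna1 measured 2.83, 2.0 and 2.31 TPM in the C libraries, 0.347, 0.385 and 0.732 in those of T and 1.05, 1.03 and 1.4 in those of L. It was 5.24-fold lower in T than in C (log2 fold change -2.39, SE 0.27, adjusted p = 6.97e-06), 2.17-fold lower in L than in C (log2 fold change -1.12, SE 0.24, adjusted p = 0.0017) and 2.41-fold higher in L than in T (log2 fold change 1.27, SE 0.31, adjusted p = 0.0115). Kcna1 lost its L against T call without L replicate 3 (log2 fold change 1.08, adjusted p = 0.0627), and over the 20 alternatives its adjusted p ran from 0.00259 to 0.0627. Kcna6, its neighbour on the chromosome, measured 5.18, 5.74 and 6.15 TPM in the C libraries, 1.13, 1.28 and 1.55 in those of T and 2.85, 3.1 and 3.46 in those of L. Kcna6 was 4.75-fold lower in T than in C (log2 fold change -2.25, SE 0.12, adjusted p = 4.65e-09), 1.99-fold lower in L than in C (log2 fold change -0.99, SE 0.11, adjusted p = 7.48e-06) and 2.39-fold higher in L than in T (log2 fold change 1.26, SE 0.13, adjusted p = 1.53e-05). They were the one pair of neighbours among the channel genes in which both genes were tested, of 23 neighbouring pairs. An opposite-strand gene, Gm26673, shares 39.6% of the exon bases of Kcna6. Kcna4 averaged 1.38 ± 0.135, 0.598 ± 0.0371 and 1.15 ± 0.201 TPM in C, T and L and was 2.51-fold lower in T than in C (log2 fold change -1.33, SE 0.21, adjusted p = 0.000118) and 1.93-fold higher in L than in T (log2 fold change 0.95, SE 0.22, adjusted p = 0.00834). The latter call did not pass in limma on log2(TPM + 1), with an adjusted p of 0.0509 in a range of 0.00724 to 0.0509.

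Kcna channels carry cytoplasmic beta subunits, and these were split as well. Kcnab1 measured 10.1, 9.98 and 11.3 TPM in the C libraries, 1.13, 1.1 and 1.34 in those of T and 0.982, 1.29 and 1.28 in those of L. Every C library was above every other, and T and L overlapped. Kcnab1 was 9.72-fold lower in T than in C (log2 fold change -3.28, SE 0.15, adjusted p = 5.71e-10) and 10.7-fold lower in L than in C (log2 fold change -3.42, SE 0.15, adjusted p = 8.13e-10), with an L minus T difference of -0.14 (95% interval -0.58 to 0.30). Kcnab2 measured 2.77, 2.75 and 2.96 TPM in the C libraries, 5.08, 6.79 and 6.39 in those of T and 5.38, 5.1 and 4.18 in those of L. C was below both others. Kcnab2 was 2.19-fold higher in T than in C (log2 fold change 1.13, SE 0.15, adjusted p = 2.6e-05) and 1.71-fold higher in L than in C (log2 fold change 0.77, SE 0.15, adjusted p = 0.000972). Kcnab3, at means of 1.03 ± 0.367, 1.08 ± 0.244 and 1.65 ± 0.198 TPM, was not called.

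Kcnc2, from a family whose channels let neurons fire at high rates, was lower in both T and L. It averaged 6.44 ± 0.903, 2.29 ± 0.410 and 3.34 ± 0.319 TPM in C, T and L. Kcnc2 was 2.94-fold lower in T than in C (log2 fold change -1.55, SE 0.15, adjusted p = 1.42e-06), 1.84-fold lower in L than in C (log2 fold change -0.88, SE 0.14, adjusted p = 0.000207) and 1.6-fold higher in L than in T (log2 fold change 0.68, SE 0.16, adjusted p = 0.0106). The last call did not pass in limma on TPM, with adjusted p-values over all alternatives of 0.00414 to 0.0865.

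Kcnf1 encodes a subunit that gives no current alone and modifies other voltage-gated channels. It measured 9.0, 8.0 and 8.27 TPM in the C libraries, 11.8, 11 and 11.3 in those of T and 3.2, 3.1 and 3.04 in those of L. T was highest and L lowest, with no overlap between segments. Kcnf1 was 2.91-fold lower in L than in C (log2 fold change -1.54, SE 0.10, adjusted p = 2.54e-08), 3.59-fold lower in L than in T (log2 fold change -1.84, SE 0.10, adjusted p = 2.48e-08) and 1.24-fold higher in T than in C (log2 fold change 0.31, SE 0.09, adjusted p = 0.00937). The last call did not pass in limma on median-centred log2(TPM + 1), with adjusted p-values over all alternatives of 0.00264 to 0.0763. Kcne5, a small single-pass subunit that alters Kv channel gating, measured 1.63, 1.53 and 1.17 TPM in the C libraries, 1.63, 1.39 and 1.83 in those of T and 0.284, 0.30 and 0.556 in those of L. L lay below both others, and C and T overlapped. Kcne5 was 3.85-fold lower in L than in C (log2 fold change -1.94, SE 0.39, adjusted p = 0.0011) and 3.99-fold lower in L than in T (log2 fold change -2.0, SE 0.39, adjusted p = 0.00294), from 62 counts in C, 59 in T and 13 in L. The summed TPM of astrocyte and ependymal markers and of macrophage markers was also highest in T and lowest in L, the order of Kcnf1 and Cacna1g, but single markers differed. The sums were 114 to 124 TPM in C, 176 to 180 in T and 48.5 to 52.5 in L for the first list, led by Gfap and Aqp4, and to 148 to 163, 260 to 267 and 82.9 to 88.2 TPM for the second, led by Lyz2 and Cd68. Foxj1, at means of 5.05, 0.674 and 0.344 TPM, Aldh1l1, at 11.7, 5.93 and 6.08, and Cx3cr1, at 2.02, 1.64 and 0.673, were highest in C, all named after their values were seen. Their part in these results was not tested. Kcne4, at means of 2.2 ± 0.307, 2.6 ± 0.427 and 2.96 ± 0.538 TPM, was not called.

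The slower Kcnq and Kcnh channels had 1 tested gene each. Kcnq5, one of the channels behind the M-current that damps firing, measured 6.28, 5.92 and 6.19 TPM in the C libraries, 9.15, 9.95 and 10.4 in those of T and 12.6, 14.6 and 12.3 in those of L. The order was L above T above C, with no overlap. Kcnq5 was 1.52-fold higher in T than in C (log2 fold change 0.61, SE 0.10, adjusted p = 0.00021), 1.99-fold higher in L than in C (log2 fold change 0.99, SE 0.10, adjusted p = 2.5e-06) and 1.3-fold higher in L than in T (log2 fold change 0.38, SE 0.10, adjusted p = 0.0155). Kcnq5 lost its L against T call without L replicate 2 (log2 fold change 0.30, adjusted p = 0.0702), and over the 20 alternatives its adjusted p ran from 0.00713 to 0.0702. Kcnh2, which repolarises the heart, measured 3.23, 3.29 and 3.49 TPM in the C libraries, 1.59, 1.48 and 1.1 in those of T and 2.61, 2.33 and 2.94 in those of L. The order was C above L above T, with no overlap. Kcnh2 was 2.71-fold lower in T than in C (log2 fold change -1.44, SE 0.19, adjusted p = 2.97e-05), 1.95-fold higher in L than in T (log2 fold change 0.96, SE 0.20, adjusted p = 0.00449) and 1.39-fold lower in L than in C (log2 fold change -0.48, SE 0.18, adjusted p = 0.0395). Kcnh2 lost its L against C call without C replicate 1, 2 or 3, or L replicate 1 or 2 (log2 fold change -0.48 to -0.40, adjusted p 0.0804 to 0.13), and in 10 of the 20 alternatives in all, over which its adjusted p ran from 0.0191 to 0.171.

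The summed TPM of neuronal markers was 273 to 281 in C, above the 73.2 to 80.5 of T and the 87.9 to 93.5 of L. Of the 5 tested, 3 were lower and 1 higher in T than in C, and 2 were lower and 0 higher in L. The sum was carried by Stmn2, at means of 162, 13.5 and 22.2 TPM in C, T and L, and Tubb3, at 70.1, 8.34 and 18.3 TPM. Eno2, at 16.6, 20.1 and 17.4 TPM, and Nefm, at 7.08, 10.5 and 9.54 TPM, both named after their values were seen, were not highest in C. The vesicle protein gene Snap25 averaged 0.303 TPM in C and was at 0 in T and L, and the nuclear marker Rbfox3 averaged 0.0473 TPM in C and was at 0 in T and L. The Kcna genes, Kcnc2, Kcnn2 and Cacna1a had their highest mean in C, while Kcnmb4, Scn2a and Cacna1b, also known from neurons, had their lowest there. Whether neuronal cells or transcripts have a part in the levels of any of these channel genes was not tested.

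Promoter windows of 2 genes with large rises and 2 with large falls in T against C are shown, so that the sequence upstream of genes that moved in opposite directions can be compared. They were chosen among tested channel genes with a single start in the RefSeq promoter table, and Piezo2 and Kcnn2 are not shown. That table matched 118 of the 159 channel genes, 39 of the 55 tested ones, and 26 of these had 1 start. Genes of 1 chromosome were then left out. Windows that shared a run of bases with an annotated transcript of the gene were left out too, and 23 genes remained. For Kcnd2, the bases after the start were not found in the first part of an annotated transcript, so its start is less certain. Sequences are from RefSeq on build GRCm38.p6, on the strand of the gene, and hold the 250 bases before the start, so a position counts bases before the start. They lie at chr11:111065914-111066163 (plus strand) for Kcnj2, chr6:21215096-21215345 (plus strand) for Kcnd2, chr11:33962763-33963012 (plus strand) for Kcnmb1 and chr17:87797995-87798244 (minus strand) for Kcnk12. Capitals mark matches to 1 of 6 motifs searched on both strands.
Kcnj2: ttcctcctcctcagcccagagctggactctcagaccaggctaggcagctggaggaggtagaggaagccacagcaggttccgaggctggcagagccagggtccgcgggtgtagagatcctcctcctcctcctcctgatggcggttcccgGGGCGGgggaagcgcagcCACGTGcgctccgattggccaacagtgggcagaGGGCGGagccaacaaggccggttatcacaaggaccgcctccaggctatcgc
Kcnd2: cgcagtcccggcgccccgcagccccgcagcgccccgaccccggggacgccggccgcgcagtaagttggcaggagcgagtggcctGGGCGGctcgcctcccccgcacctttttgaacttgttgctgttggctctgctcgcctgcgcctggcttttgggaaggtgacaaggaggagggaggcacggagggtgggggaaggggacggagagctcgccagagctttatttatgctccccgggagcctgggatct
Kcnmb1: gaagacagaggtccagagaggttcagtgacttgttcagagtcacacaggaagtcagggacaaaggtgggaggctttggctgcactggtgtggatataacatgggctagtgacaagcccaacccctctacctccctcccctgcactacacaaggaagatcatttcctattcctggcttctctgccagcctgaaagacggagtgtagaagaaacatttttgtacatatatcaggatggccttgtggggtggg
Kcnk12: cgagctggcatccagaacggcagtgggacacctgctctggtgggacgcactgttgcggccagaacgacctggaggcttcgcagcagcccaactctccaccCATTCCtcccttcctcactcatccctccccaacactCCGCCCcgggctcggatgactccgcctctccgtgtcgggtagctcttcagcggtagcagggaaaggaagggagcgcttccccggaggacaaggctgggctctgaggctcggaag
The windows were searched for GGGCGG, known as the GC box, and for TGANTCA, bound by AP-1 factors. Other motifs were GGAATG, bound by TEAD factors, and CACGTG, a form of the E-box. The TATA box was searched as TATAAA, and the CArG box by its usual consensus. The matches shown do not overlap each other. Kcnj2 held a GC box at bases 102 to 97 and again at 51 to 46 before the start, with an E-box between them at 84 to 79. Kcnd2 held a GC box at 166 to 161, and Kcnk12 a TEAD match at 150 to 145 and a GC box at 114 to 109, both on the reverse strand. Kcnmb1 held none of the 6, and its window had a GC content of 50.8%, against 65.6%, 68.8% and 64.8% in Kcnj2, Kcnd2 and Kcnk12. Over all 32536 windows of the same length, 33% held a GC box, 6.73% an AP-1, 12.6% a TEAD, 6.04% an E-box, 12.3% a TATA and 1.48% a CArG match. In the 61 windows of tested channel genes the shares were 42.6%, 3.28%, 11.5%, 9.84%, 3.28% and 0%. A match is a run of letters and not a shown binding site.

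Of the 18 sodium channel genes, 6 were tested. In T against C 3 rose and 1 fell, beside 25.8% higher and 25.2% lower among all tested genes. Scn3b, a beta subunit, measured 3.38, 2.79 and 2.99 TPM in the C libraries, 0.787, 0.776 and 0.622 in those of T and 1.43, 0.614 and 0.709 in those of L. Every C library was above every other. Scn3b was 4.58-fold lower in T than in C (log2 fold change -2.20, SE 0.19, adjusted p = 5.48e-07) and 4.48-fold lower in L than in C (log2 fold change -2.16, SE 0.20, adjusted p = 8.97e-07).

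The 2 tested voltage-gated pore genes rose in both T and L. Scn2a, a channel of axons in the brain, measured 1.76, 2.79 and 2.22 TPM in the C libraries, 3.24, 4.61 and 3.06 in those of T and 4.54, 5.12 and 3.75 in those of L. C lay below both others. It was 1.56-fold higher in T than in C (log2 fold change 0.64, SE 0.18, adjusted p = 0.00923) and 1.9-fold higher in L than in C (log2 fold change 0.93, SE 0.18, adjusted p = 0.000753). Scn2a lost its T against C call in limma on median-centred log2(TPM + 1), and its adjusted p ran from 0.00231 to 0.0975 over the 20 alternatives. Scn7a, an atypical channel that senses sodium concentration, measured 0.497, 0.516 and 0.615 TPM in the C libraries, 0.896, 1.2 and 1.24 in those of T and 1.61, 2.46 and 1.1 in those of L. C lay below both others, and the L libraries were spread widely. Scn7a was 1.87-fold higher in T than in C (log2 fold change 0.90, SE 0.27, adjusted p = 0.0135) and 2.89-fold higher in L than in C (log2 fold change 1.53, SE 0.26, adjusted p = 0.000303). Scn7a lost its T against C call without T replicate 3 (log2 fold change 0.82, adjusted p = 0.0502), and in 3 of the 20 alternatives in all, over which its adjusted p ran from 0.0032 to 0.167. Scn7a is also a marker of non-myelinating Schwann cells and stands in the Schwann cell list used here. The summed TPM of that list, led by Pmp22 and Ncam1, moved the other way, with 417 to 429 in C, 245 to 249 in T and 315 to 339 in L. Its single genes were split. Of the 11 tested, 4 (Scn7a, S100b, Egr2 and Prx) rose and 7 fell in T against C, and likewise in L against C. The part of Schwann cells in the Scn7a result was not tested.

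Scnn1a, the alpha subunit of the epithelial sodium channel, measured 0.511, 0.692 and 0.836 TPM in the C libraries, 1.13, 1.34 and 0.953 in those of T and 1.19, 1.09 and 1.29 in those of L. It was 2.04-fold higher in T than in C (log2 fold change 1.03, SE 0.27, adjusted p = 0.00671). Scnn1a lost its T against C call in limma on median-centred log2(TPM + 1), and its adjusted p ran from 0.00446 to 0.281 over the 20 alternatives. Its partners Scnn1b and Scnn1g stood at 0 in every library. Scnm1, the splicing factor, measured 21.4, 20.2 and 24.5 TPM in the C libraries, 24.4, 26 and 25.9 in those of T and 24, 27.1 and 22.6 in those of L and was not called, with a T minus C difference of 0.08 (95% interval -0.13 to 0.30).

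**Figure D4:**
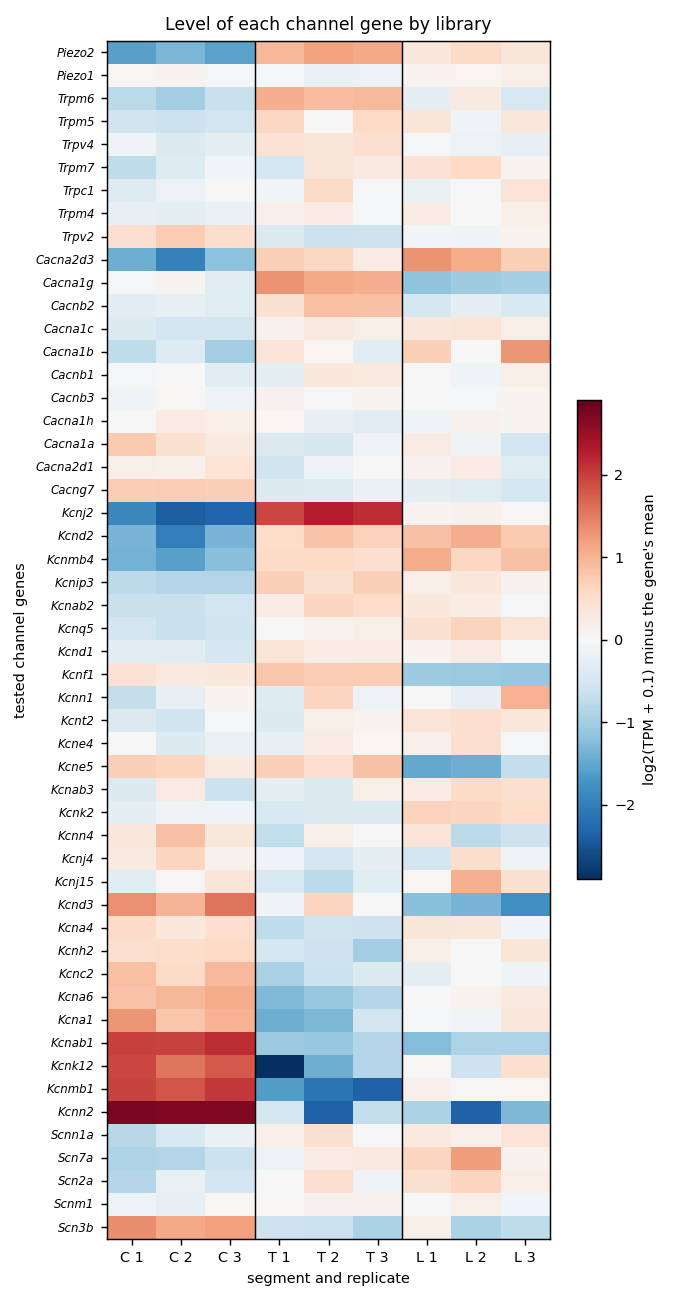
Colours give the log2(TPM + 0.1) of the same 52 tested channel genes in each library minus the mean of each gene over the 9 libraries, in the order of the fold change plot. Blocks of 3 libraries are close in colour for Piezo2, Kcnj2 and Kcnab1, and rows such as Cacnb3 and Scnm1 stay pale.

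The channel genes were also counted by the order of segments. With T above both others and no overlap, there were 8 of the 55 tested genes, or 14.5% (Cacna1g, Cacnb2, Kcnf1, Kcnip3, Kcnj2, Piezo2, Trpm6 and Trpv4), where 9.53% of all tested genes had that order. T below both others held for 11, or 20% (Kcna1, Kcna4, Kcna6, Kcnc2, Kcnh2, Kcnj15, Kcnk12, Kcnk2, Kcnmb1, Piezo1 and Trpv2), against 6.16% of all genes. C above both others held for 14, or 25.5%, against 16.4% of all genes. C below both others held for 17, or 30.9%, near the 28% of all genes. L above both others held for 5, or 9.09% (Cacna2d3, Kcnk2, Kcnmb4, Kcnq5 and Kcnt2), against 5.95% of all genes. L below both held for 4, or 7.27% (Cacna1g, Kcnd3, Kcne5 and Kcnf1), near the 5.62% of all genes. A gene can stand in more than 1 of these patterns.

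The 104 untested genes were mostly near 0, and 16 of them reached a mean of 0.5 TPM in a segment. Trpc6, a receptor-operated calcium channel of smooth muscle and kidney podocytes, stood at 1.317, 0.835 and 1.61 TPM in the C libraries, at 0.192, 0.037 and 0.151 in those of T and at 0.25, 0 and 0.226 in those of L. Kcnk6, a leak channel, averaged 0.493, 1.29 and 0.802 TPM in C, T and L. Kcnk10, another stretch-responsive leak channel, had 0.82 in C, 0.0923 in T and 0.155 in L. Cacna1d, Kcng2, Kcnk1, Kcnk5, Kcnk13, Kcns1, Kcnj12 and Scn8a were each highest in C, with means there of 0.5 to 0.876 TPM, whereas Kcnc4 and Kcns3 were highest in T at 0.547 and 0.785 TPM. Kcnn3 reached 0.534 TPM in L. With no level filter, 139 channel genes were tested. Of these, 36 in place of 22 were lower in T than in C, and 31 in place of 20 were lower in L than in C. Among all 17154 genes tested so, 3466 in place of 3169 were lower in T than in C. The number lower in L than in C was 3423 in place of 3166.

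Other ion transport genes, taken as lists beside the channel genes, moved as well. Among 8 tested genes of the sodium-potassium pump and its Fxyd regulators, 4 rose and 1 fell in T against C. The pump subunit Atp1b1 averaged 64.6 ± 1.67, 368 ± 24.7 and 235 ± 18.2 TPM in C, T and L and was 5.21-fold higher in T than in C (log2 fold change 2.38, SE 0.06, adjusted p = 3.7e-12). Fxyd6, a regulator of the pump, was 3.08-fold lower in L than in C (adjusted p = 1.94e-07). Of 14 tested genes for store-operated and intracellular calcium release, 6 rose and 3 fell in T against C, among them the mitochondrial uniporter Mcu at 1.74-fold higher. Of 7 calcium pumps and exchangers, 1 rose (Slc8a1, 2.58-fold) and 4 fell, among them Atp2a2, the pump that refills the endoplasmic reticulum, at 1.46-fold lower.

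Chloride and volume-regulated channels had 3 higher and 8 lower of 20 tested in T against C. Ano5 averaged 0.82 ± 0.183, 9.57 ± 2.61 and 16.0 ± 2.97 TPM in C, T and L and was 11.1-fold higher in T and 18.7-fold higher in L than in C (adjusted p = 6.37e-09 and 1.04e-09), and Ttyh1 was 4.47-fold lower in T than in C (adjusted p = 1.1e-08). Of 13 other cation channels tested, 3 rose and 2 fell in T, led by Cngb1 at 3.70-fold and the sodium leak channel Nalcn at 2.81-fold higher. Of 9 candidate force-sensing genes outside Piezo, 3 rose and 2 fell, with Tmc7 1.79-fold and Tmc6 1.65-fold higher in T. Of 22 genes of the calmodulin, calcineurin and NFAT pathway, 3 rose and 10 fell, and the kinase Camk4 was 2.84-fold higher in T than in C. Of 25 channel regulators, 6 rose and 12 fell in T, with the sodium channel partner Fgf12 7.26-fold lower, its relative Fgf14 3.38-fold higher and the anchoring protein gene Akap5 5.60-fold lower. For all tested genes, the share called in T against C was 25.8% higher and 25.2% lower, as above.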

How the data were processed

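Total RNA of 9 libraries of mouse spinal meningeal cells was sequenced from strand-keeping libraries, as the labels' protocols state. The table deposited by the authors holds, for 22013 genes, estimated counts and TPM values per library. DESeq2 1.32.0, StringTie 2.1.4, HISAT2 2.2.1, Trimmomatic 0.39 and FastQC 0.11.9 are listed in the submitters' processing notes, which do not tie them to steps, beside the builds GRCh38 and GRCm39. The sources used here do not give the annotation or the strand setting of the counting, so values of overlapping, antisense and near-identical genes are uncertain. L replicate 3 was matched to its column by title, since its description points to that of replicate 2. The table has 112 entries without a symbol. Results for some genes are not reported here, although they remain in the counts and fits.

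The estimated counts deposited by the authors were exactly whole in 92.7% of values and were rounded to whole numbers. TPM as deposited served for levels and for the filter (at least 1 in at least 3 libraries), which left 12553 genes. All 9 libraries entered 1 fit of the edgeR 4.0.16 quasi-likelihood model in R 4.3.3 with TMM scaling and no term other than segment. L was compared with T, and each of them with C, beside an F test over all segments, two-sided, with Benjamini-Hochberg adjustment over all tested genes at 0.05. Fold changes come from counts and levels from TPM, and the ratios can differ. Limma 3.58.1 on log2(TPM + 1) and log2(TPM + 0.1), DESeq2 1.42.0, other scalings, other filters, each library left out and a replicate block were alternatives. The procedure was also run on simulated data with changes in T alone and in far fewer genes than were called here. How it performs with as many changed genes as here was not tested.

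Every pair of replicates differed beyond sampling noise, and the chi-square over its degrees of freedom was 3.68 to 19.8. Channel genes, context lists, marker lists and motifs were written from general knowledge with earlier results of these data known, and no list or pattern serves as independent support. Within each channel class, the values of every library are given for up to 4 genes with the largest change past the threshold and no overlap of libraries, and for the most abundant gene. Of each context list up to 4 genes past the threshold with the largest change could be named, and of each marker list the 2 most abundant and those at 0. Some further markers were named after their values were seen. Neighbours come from RefSeq, exon overlaps from GENCODE M21, and promoters from RefSeq on GRCm38.p6, whose coordinates differ from those of the build the files use.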

Additional observations from a re-analysis of the deposited data

How the results depend on the processing

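Of 102 single calls of channel genes, 76 passed in all 20 alternatives, 26 were lost in at least 1 and none changed sign. By comparison, 32 of 42 calls passed throughout for T minus C, 30 of 37 for L minus C and 14 of 23 for L minus T. Of the lost calls, 6 were lost only on leaving out a library or adding the replicate block. With no level filter, 17154 genes and 139 channel genes were tested. Then 36 channel genes were lower in T than in C and 31 lower in L than in C, in place of 22 and 20. Of all genes tested so, 3466 and 3423 were lower, in place of 3169 and 3166. More genes are tested there, and 17, 11 and 2 channel genes below the filter were called for T and L against C and for L against T. With each library left out in turn, the number of all genes higher in L than in T ran from 657 (without T replicate 3) to 1190, beside 989. The cause was not tested. The other counts of called channel genes stayed within 1.5 times of those reported, among them 61 with no filter in the F test beside 45. For all genes, that F test called 7632 with no filter beside 7018.

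The values gave no clear sign that replicate numbers pair the libraries, although a check on 3 libraries per segment cannot exclude pairing. Deviations of same-numbered libraries from their segment means correlated at -0.264 to 0.465, beside -0.508 to 0.524 for different numbers. With the replicate block, 41 channel genes were called for T minus C, all shared with the 42 without it, 36 for L minus C, all shared with the 37, and 23 for L minus T, of which 22 were shared with the 23. In the block fit, T against C had 20 channel genes higher and 21 lower, beside 17 higher and 19 lower in L than in C, and 13 higher and 10 lower in L than in T, with 44 called by the F test.

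Limma on log2(TPM + 1) gave a median log2 change of all genes of 0.13 for T minus C and 0.10 for L minus C, beside 0.02 and 0.01 in the edgeR fit, and called 4110 of all genes higher and 2214 lower for T and 3737 higher and 2246 lower for L, both against C. After centring on the median these became 2491 and 3313, and 2282 and 3399, beside 3240 and 3169, and 3064 and 3166, in the edgeR fit. Channel genes called in T minus C were 19 higher and 17 lower before centring and 15 higher and 22 lower after it. Depth limits what can be said of Kcnn2, Kcnk12, Kcne5 and Trpm5, which rest on few counts, and 3 libraries per segment limit all tests.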
